A study of Mus musculus with 34 samples.

Results

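The genes described here are 7 members of the mouse MHC class II antigen presentation pathway, H2-Aa, H2-Ab1, H2-Eb1, Cd74, H2-DMa, H2-DMb1 and Ciita, taken by gene name from 55487 gene IDs measured by RNA sequencing of whole liver. All 7 had reads in every library. The livers came from male mice aged 3 months that had received an intraperitoneal injection. PiZ PBS livers (5 libraries) carried the PiZ genotype, which stands for the human Z variant of alpha-1 antitrypsin, a secreted protease inhibitor that polymerizes in the endoplasmic reticulum of hepatocytes. Livers labelled PiZ p50KO PBS (5 libraries) carried PiZ together with a knockout of p50, the NF-kB subunit made from Nfkb1. Wild-type livers were taken 2 hours after TNFa (WT TNFa, 6 libraries), after PBS vehicle (WT PBS, 6 libraries), 24 hours after tunicamycin, which blocks N-glycosylation and stresses the endoplasmic reticulum (WT tunicamycin, 6 libraries), or after DMSO vehicle (WT DMSO, 6 libraries). The 4 PBS and TNFa groups are batch 1 and 1 deposited table, and the tunicamycin and DMSO groups are batch 2 and another table, so tests were made only within a table. The labels used here give no strain, no promoter of the PiZ transgene, no number of lines and no statement on which exons of Nfkb1 were removed.

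MHC class II molecules present peptides from endocytosed proteins to CD4 T cells. An alpha and a beta chain (H2-Aa with H2-Ab1, or H2-Ea with H2-Eb1) are assembled in the endoplasmic reticulum on the invariant chain Cd74, which fills the groove and guides the complex to endosomes. There the H2-DM dimer (H2-DMa with H2-DMb1) exchanges the last fragment of Cd74 for peptide. Ciita is the coactivator that these genes share, and it acts on promoters bound by RFX, CREB and NF-Y. In liver the pathway is known from Kupffer cells, recruited macrophages, dendritic cells and B cells, and interferon gamma can induce it in further cell types.

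Several libraries stood apart and are given apart where a result rests on them. WT PBS 2 had 10.2 M reads, against 35.5 to 54.0 M reads in the other libraries of its table and 34.3 to 47.8 M reads in the second table. Only 72.2% of its reads fell in protein-coding genes, against at least 96.6% elsewhere, and its albumin level was 12.22 log2 CPM, against at least 14.09. CPM is a read count scaled to the total of its library. WT PBS 2 was left out of all means and tests unless it is named. Nfkb1, the gene targeted in the p50 knockout, stood at 4.51, 4.86, 3.31, 3.74 and 3.37 log2 CPM in the libraries labelled PiZ p50KO 1 to 5, against 5.58, 5.45, 5.00, 4.62 and 5.12 in PiZ 1 to 5. Library 2 of that label lay within the PiZ range. Library 1 lay just below the lowest PiZ value, and libraries 3 to 5 lay further below it. WT PBS 1 and 3 to 6 had 3.92 to 4.34 log2 CPM of Nfkb1, below libraries 1 and 2 of that label. WT TNFa 4 had Nfkb1 at 4.77 log2 CPM, against 6.57 to 6.95 in the other TNFa libraries. In the second table WT DMSO 5 was the highest library for each of the 7 members.

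Promoter letters, which the choice of genes did not use, could be read for some of the members. RefSeq promoter entries (build GRCm38.p6) were matched for 4 members, and 3 of these, H2-Aa, H2-Eb1 and H2-DMb1, held GNAACT followed by TGATTGG, the letters of the X box that RFX binds and of the Y box that NF-Y binds. These 3 are printed to show the boxes and their spacing in 3 genes with very different levels. Each run is the 150 bases before the RefSeq start, 5′ to 3′ on the strand of the gene, and capitals mark every GNAACT or TGATTGG on either strand.
H2-Aa: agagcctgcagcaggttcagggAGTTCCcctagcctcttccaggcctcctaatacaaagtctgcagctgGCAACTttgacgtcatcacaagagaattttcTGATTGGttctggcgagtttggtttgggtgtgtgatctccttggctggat
H2-Eb1: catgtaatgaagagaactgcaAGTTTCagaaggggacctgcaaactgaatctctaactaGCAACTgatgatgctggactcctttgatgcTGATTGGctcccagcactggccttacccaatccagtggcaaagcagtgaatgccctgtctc
H2-DMb1: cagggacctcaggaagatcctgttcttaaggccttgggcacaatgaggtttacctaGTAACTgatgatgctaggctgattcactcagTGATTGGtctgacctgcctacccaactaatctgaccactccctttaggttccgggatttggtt
They lie at chr17:34287824-34287973 on the minus strand for H2-Aa, chr17:34305717-34305866 on the plus strand for H2-Eb1 and chr17:34153041-34153190 on the plus strand for H2-DMb1. Between the boxes lie 25 bases in H2-Aa, 24 in H2-Eb1 and 25 in H2-DMb1. Over the 250 bases before the start, 0.289% of 32851 mouse promoter entries hold the pair within 40 bases, while 37.3% hold GNAACT and 7.23% hold TGATTGG on either strand. The letters were chosen after these promoters had been read, so the shares describe how common they are and test nothing. The pair is not in the windows of the 2 entries for H2-DMa. The 150 bases before these 2 starts lie at chr17:34122682-34122831 and chr17:34125368-34125517. Both lie inside the annotated gene, which runs from 34119541 to 34139101. Whether H2-DMa holds the pair before another start was not tested.

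In PiZ livers the 7 class II genes were higher than in WT PBS livers, by 2.59-fold for H2-DMa to 149-fold for H2-Eb1, and for each gene the PiZ libraries lay above every WT PBS library. All 7 passed the test (limma on log2 CPM, two-sided, Benjamini-Hochberg adjusted over 13285 genes, threshold 0.05). Of all genes tested, 45.6% were called higher and 6.19% lower in this comparison, and 31.4% were higher without overlap of the groups. The test took the genes that exceeded 1 CPM in 5 or more libraries. H2-Eb1, H2-DMb1 and Ciita were below 1 CPM in each of the 5 WT PBS libraries and so passed this filter through the groups where they were high. The median log2 fold change of the members was 2.25, against 0.40 over all genes tested, and with the libraries shifted to the same median all 7 were still called, with a member median of 1.76, while 17.4% of all genes were then called higher and 22.5% lower. The 5 H2 members lie within 197 kb of chromosome 17, and Cd74 and Ciita lie on other chromosomes.

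Of the chains, H2-Aa stood at 6.32, 6.32, 6.26, 5.47 and 6.30 log2 CPM in PiZ 1 to 5, against 5.00, 4.66, 4.31, 4.77 and 4.78 in WT PBS 1 and 3 to 6. H2-Ab1, its partner, stood at 6.25, 6.63, 6.72, 5.99 and 6.46 log2 CPM in the PiZ libraries, against 4.75, 4.31, 4.27, 4.50 and 4.49 in the WT PBS libraries. PiZ 4 was the lowest PiZ library for both chains, and still lay above every WT PBS library. The log2 fold changes were 1.43 ± 0.22 (SE) for H2-Aa and 1.95 ± 0.28 for H2-Ab1, with adjusted p = 2.57e-05 and 8.8e-06 in limma.

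The invariant chain Cd74 was the most abundant member per kb of transcript in PiZ. It stood at 6.93, 7.32, 7.49, 6.62 and 7.35 log2 CPM in PiZ 1 to 5, against 5.35, 4.78, 4.45, 4.75 and 4.69 in WT PBS 1 and 3 to 6. It was 5.06-fold higher in PiZ (log2 fold change 2.34 ± 0.22, adjusted p = 6.89e-08 in limma).

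The H2-DM genes, whose products edit the peptide in the groove, were expressed far below the chains. H2-DMa stood at 2.50, 3.00, 3.18, 2.07 and 2.74 log2 CPM in PiZ, against 1.84, 1.42, 1.22, 0.99 and 1.15 in WT PBS (log2 fold change 1.37 ± 0.26, adjusted p = 0.000206 in limma). H2-DMb1 stood at 2.97, 2.98, 2.73, 1.33 and 2.27 log2 CPM in PiZ, against -0.97, -0.15, -1.50, -1.18 and -0.29 in WT PBS (3.27 ± 0.43, adjusted p = 3.85e-06). The transcripts of H2-DMb1 and its neighbour H2-DMb2 are 94.3% identical over 1211 aligned bases, so reads may be split between them. H2-DMb2 alone did not pass the test (log2 fold change -0.04 ± 0.48, adjusted p = 0.946). The sum of both genes was 2.69 ± 0.68 log2 CPM in PiZ and 0.62 ± 0.41 in WT PBS (SD, n = 5 each), a smaller difference than that of H2-DMb1 alone.

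Ciita was the least abundant member, with 58 to 107 reads per PiZ library, against 10 to 33 per WT PBS library. It stood at 0.53, 1.01, 0.93, 0.72 and 1.09 log2 CPM in PiZ, against -0.68, -1.34, -1.50, -1.46 and -2.01 in WT PBS. The coactivator was thus 4.77-fold higher in PiZ (log2 fold change 2.25 ± 0.35, adjusted p = 2.63e-05 in limma). With WT PBS 2 in the fit, 5 of the 7 members were called, where 15.1% of genes were called higher. Ciita (log2 fold change 1.11, adjusted p = 0.476) and H2-DMa (0.73, adjusted p = 0.417) were then not called. In whole liver a change in the number of cells of a type and a change in RNA per cell cannot be told apart.

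**Figure D1:**
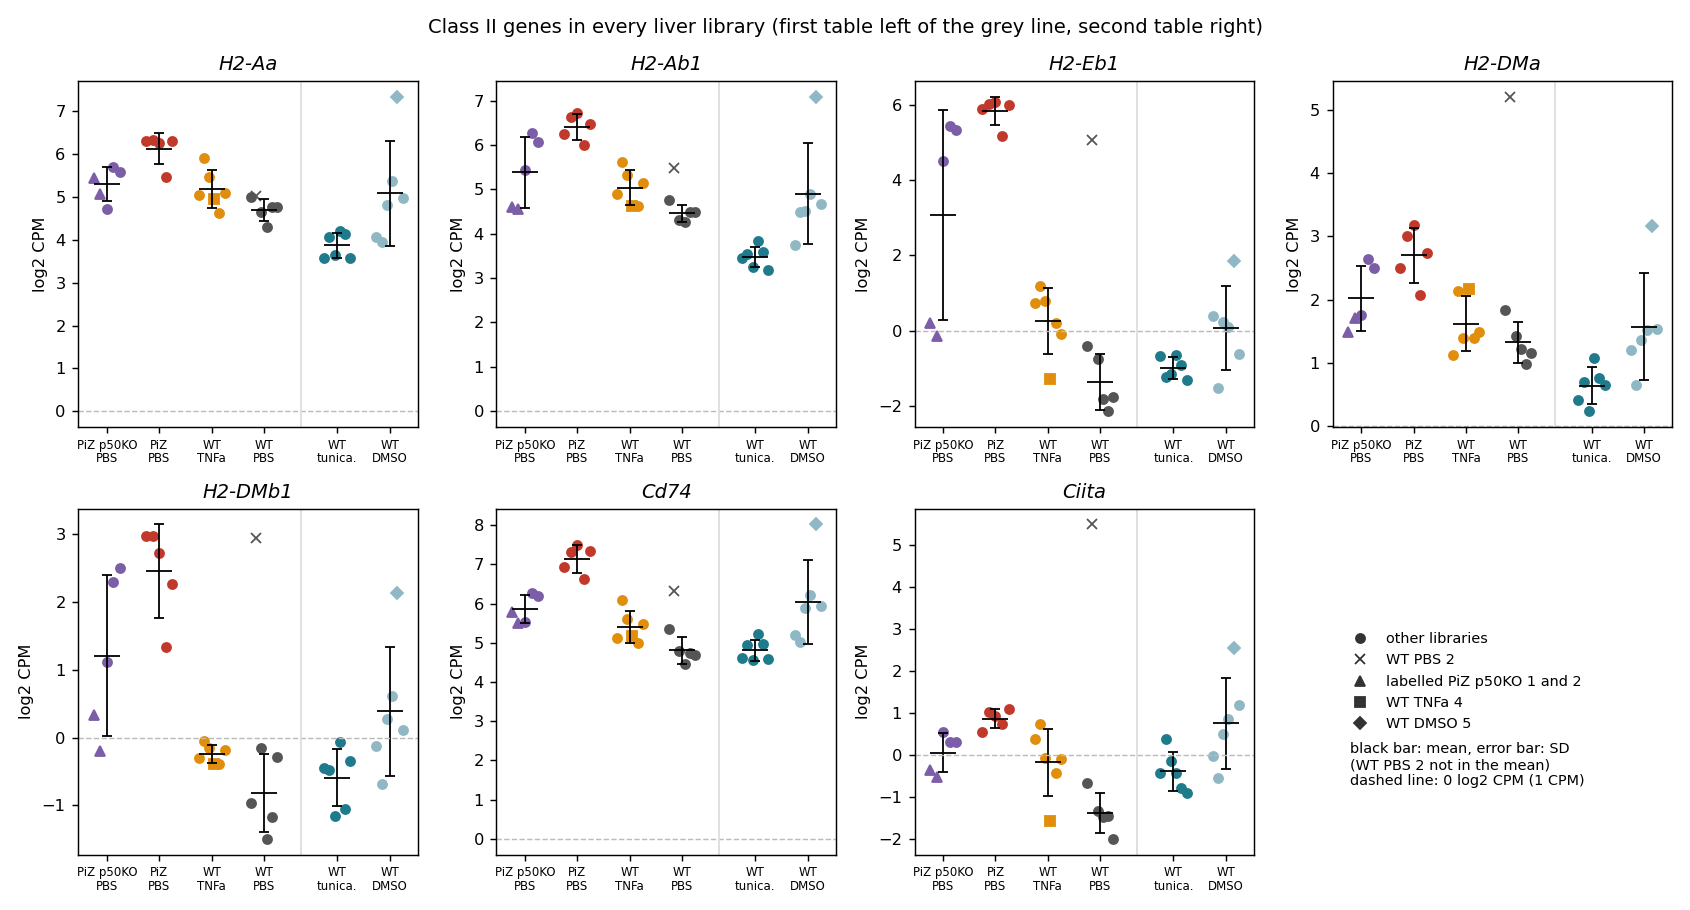
Each panel gives 1 gene in log2 CPM (vertical axes differ between panels) for every library, by group, with the mean and SD in black. PiZ lies above WT PBS for all 7 genes, WT PBS 2 (cross) lies far from its group for Ciita, H2-DMa, H2-DMb1 and H2-Eb1, and WT DMSO 5 (diamond) is the highest library of the second table.

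H2-Eb1, the beta chain of the E molecule, differed from its relatives in size. It stood at 5.90, 6.04, 6.09, 5.18 and 6.01 log2 CPM in PiZ 1 to 5, against -0.41, -0.77, -1.81, -2.14 and -1.75 in WT PBS 1 and 3 to 6. In reads this was 1281 to 3317 per PiZ library, against 11 to 40 per WT PBS library. The log2 fold change was 7.22 ± 0.85 (adjusted p = 1.09e-06 in limma). All 6 WT TNFa, 6 tunicamycin and 6 DMSO libraries also lay below 2 log2 CPM. The alpha chain of the E molecule, H2-Ea, had no reads in any library other than WT PBS 2, where it stood at 2.60 log2 CPM.

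The libraries labelled PiZ p50KO fell on both sides for H2-Eb1. Libraries 1 and 2 of that label stood at 0.21 and -0.14 log2 CPM, and the other 3 at 4.51, 5.45 and 5.35. A class I gene 327 kb away on the same chromosome, H2-K2, was the reverse. It stood at 5.85 and 5.58 log2 CPM in the libraries labelled PiZ p50KO 1 and 2 and at 1.34, 2.38 and 2.36 in the other 3. PiZ libraries had 1.25 to 2.54 log2 CPM of H2-K2, and WT PBS libraries 1 and 3 to 6 had 5.50 to 6.06. H2-K2 was lower in PiZ than in WT PBS (log2 fold change -3.72 ± 0.60, adjusted p = 3.45e-05 in limma). H2-Eb1 and H2-K2 thus placed the libraries labelled PiZ p50KO 1 and 2 near wild type and libraries 3 to 5 near PiZ.

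Serpina3f, Slamf7 and Gdpd3, on chromosomes 12, 1 and 7, split the same libraries. Serpina3f, a mouse relative of antichymotrypsin, stood at 3.61 and 3.52 log2 CPM in the libraries labelled PiZ p50KO 1 and 2 and at 9.05 to 9.44 in libraries 3 to 5, against 10.07 to 10.76 in PiZ and 2.40 to 3.62 in WT PBS. Slamf7, a receptor of leukocytes, stood at -3.52 and -1.43 log2 CPM in the libraries labelled PiZ p50KO 1 and 2 and at 3.75 to 3.81 in the other 3, against 4.76 to 5.36 in PiZ. In WT PBS Slamf7 stood at -6.52 to -2.65, so library 1 of that label lay within this range and library 2 above it. Gdpd3 ran the other way, at 3.55 and 3.11 log2 CPM in the libraries labelled PiZ p50KO 1 and 2 and with 0, 5 and 0 reads in the other 3, against -4.26 to -2.47 in PiZ and 3.33 to 4.14 in WT PBS. H2-K2 and these 3 genes were chosen after their values were seen. Differences at the H2 locus that come with a mouse strain and those that come with the PiZ genotype cannot be told apart here, since the labels give no strain. Within 500 kb of the H2 members, 19 of 42 other genes tested were higher in PiZ and 1 was lower, so 45.2% were called higher, close to the 45.6% of all genes.

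**Figure D2:**
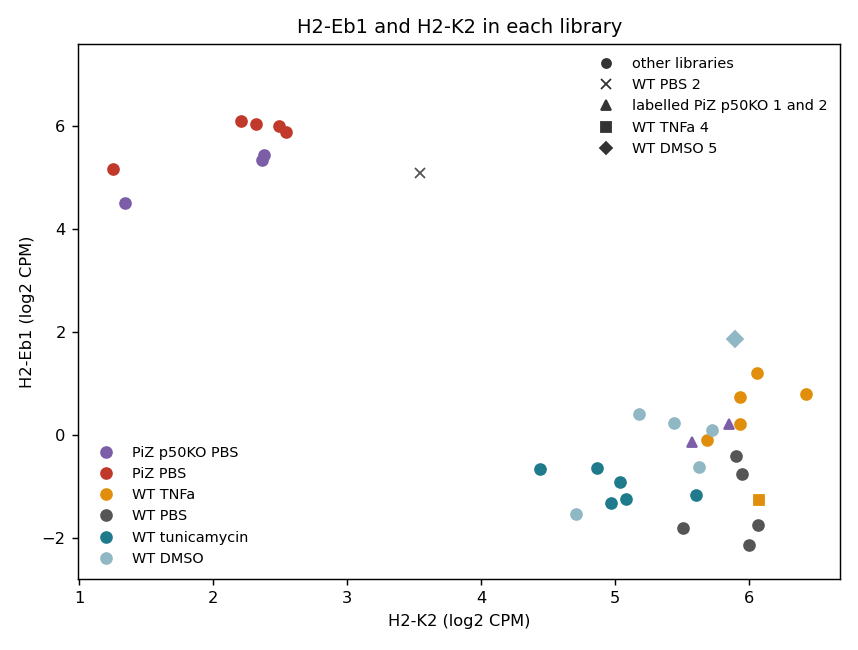
H2-Eb1 against H2-K2, both in log2 CPM, with 1 point per library. The PiZ libraries and the libraries labelled PiZ p50KO 3 to 5 lie at high H2-Eb1 and low H2-K2, while the libraries labelled PiZ p50KO 1 and 2 (triangles) lie with the wild-type livers.

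The reads of some members relative to those of Cd74 differed between groups. Within each library the log2 ratio of a member to Cd74 was compared between groups, which no scaling between libraries can change. Of 21 ratios tested over 4 comparisons, 5 passed (exact two-sided permutation test, adjusted over the 21). In PiZ against WT PBS the ratio to Cd74 was -1.01 ± 0.24 in PiZ and -0.10 ± 0.17 in WT PBS for H2-Aa, a difference of -0.91 (SD, n = 5 each, exact p = 0.00794, adjusted p = 0.0333). It was -4.44 ± 0.13 in PiZ and -3.48 ± 0.20 in WT PBS for H2-DMa (difference -0.96), -0.73 ± 0.10 in PiZ and -0.34 ± 0.19 in WT PBS for H2-Ab1 (-0.39), and -1.30 ± 0.16 in PiZ and -6.18 ± 0.54 in WT PBS for H2-Eb1 (4.88), each with the same exact p. In reads, H2-Aa, H2-Ab1 and H2-DMa thus rose less than Cd74, and H2-Eb1 rose more. Cd74 lies outside the H2 locus. Differences at that locus that come with a mouse strain and those that come with PiZ cannot be told apart in these ratios. The ratio of Ciita to Cd74 was -6.29 ± 0.24 in PiZ and -6.20 ± 0.29 in WT PBS (exact p = 0.619, adjusted p = 0.765). For H2-DMb1 the difference of 0.93 missed the threshold (exact p = 0.0556, adjusted p = 0.117). In groups of 5, 0.00794 is the smallest p this test can give, and with any PiZ or WT PBS library left out no ratio passed. Per kb of transcript the order in PiZ was Cd74, H2-Ab1, H2-Aa, H2-Eb1, H2-DMb1, H2-DMa and Ciita. In WT PBS it was H2-Aa, Cd74, H2-Ab1, H2-DMa, H2-DMb1, H2-Eb1 and Ciita. Neighbours within 1 SD of each other were H2-Ab1 with H2-Aa and H2-DMb1 with H2-DMa in PiZ, and Cd74 with H2-Aa and with H2-Ab1 in WT PBS.

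**Figure D3:**
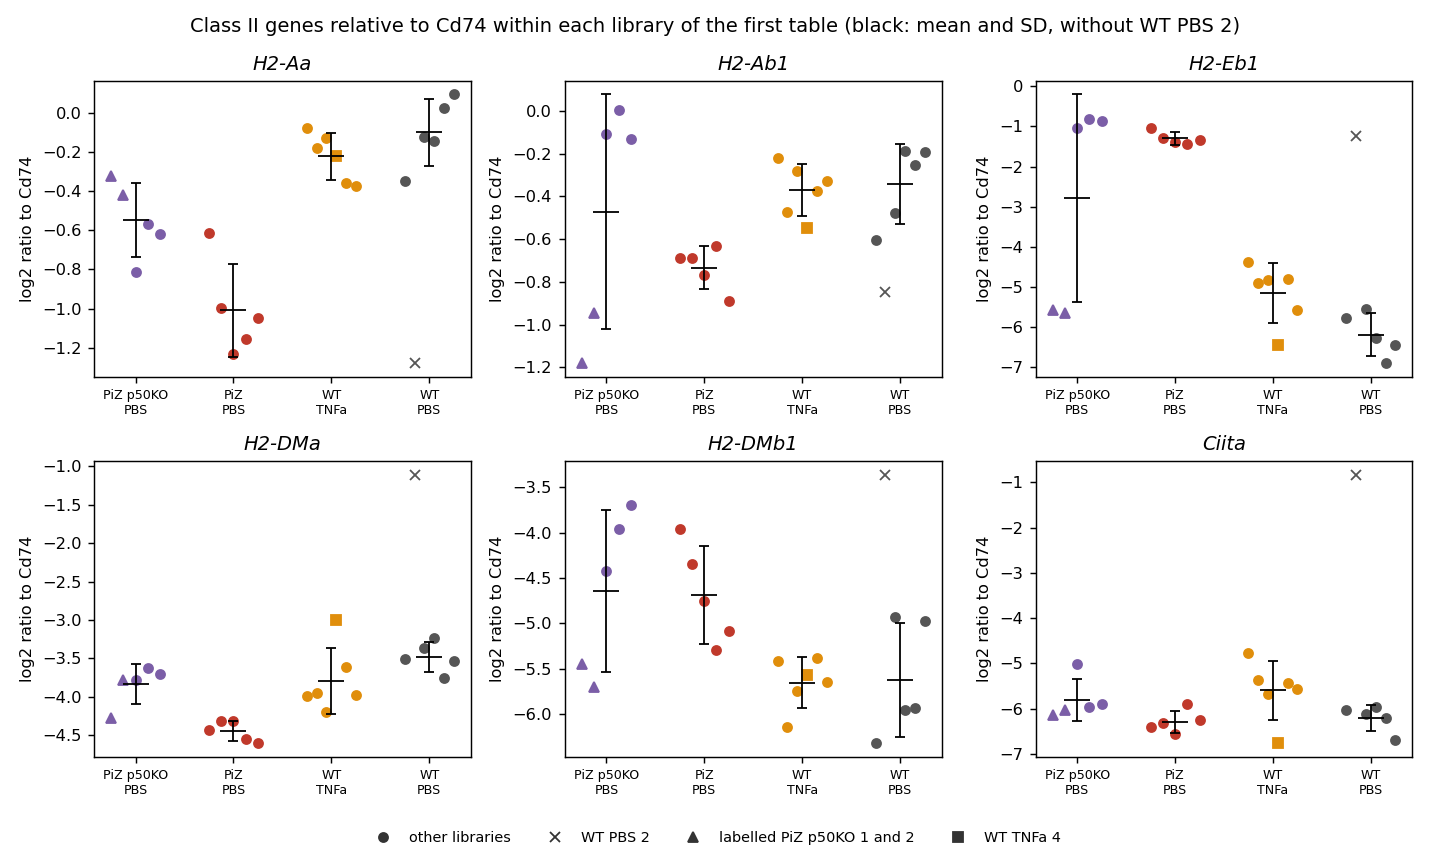
Log2 ratio of 6 members to Cd74 within each library of the first table, with the mean and SD in black. PiZ lies below WT PBS for H2-Aa, H2-Ab1 and H2-DMa and above it for H2-Eb1, while the ratio of Ciita overlaps between them.

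Of the 7 members, 5 were called lower in the livers labelled PiZ p50KO than in PiZ livers, and the count depended on which libraries carrying the label were used. The 5 were called where 21.6% of all genes were called lower and 3.36% higher. With the libraries shifted to the same median 4 were called, and 9.11% of all genes were lower and 9.84% higher. Without the libraries labelled PiZ p50KO 1 and 2, only Cd74 was called lower, where 9.62% of all genes were.

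Cd74 stood at 5.78, 5.50, 5.54, 6.26 and 6.20 log2 CPM in the libraries labelled PiZ p50KO 1 to 5, all below the 6.62 to 7.49 of the PiZ libraries. It was the only member whose groups did not overlap, which held for 11.9% of all genes in this direction. Its log2 fold change was -1.29 ± 0.22 (adjusted p = 0.000276 in limma), and -1.14 ± 0.25 (adjusted p = 0.00599) without the libraries labelled 1 and 2.

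H2-Aa stood at 5.46, 5.08, 4.73, 5.69 and 5.58 log2 CPM in the libraries labelled PiZ p50KO, against 5.47 to 6.32 in PiZ. The log2 fold change of this alpha chain was -0.83 ± 0.22 (adjusted p = 0.0103), and -0.80 without libraries 1 and 2 (adjusted p = 0.0581). H2-Ab1 stood at 4.60, 4.56, 5.43, 6.27 and 6.07 log2 CPM, against 5.99 to 6.72 in PiZ. The log2 fold change of this beta chain was -1.02 ± 0.28 (adjusted p = 0.0102), and -0.49 without libraries 1 and 2 (adjusted p = 0.181). H2-Eb1 (-2.77 ± 0.85, adjusted p = 0.0222) and H2-DMb1 (-1.25 ± 0.43, adjusted p = 0.0398) likewise came to -0.74 and -0.48 without those libraries, with adjusted p = 0.323 and 0.447. For these 3 genes libraries 1 and 2 of that label were the lowest, whereas for Cd74 and H2-Aa library 3 was among the lowest.

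H2-DMa stood at 1.50, 1.72, 1.77, 2.64 and 2.50 log2 CPM in the libraries labelled PiZ p50KO, against 2.07 to 3.18 in PiZ, and did not pass the test (-0.68 ± 0.26, adjusted p = 0.0643). Its ratio to Cd74 was -3.83 ± 0.26 in those libraries and -4.44 ± 0.13 in PiZ, a difference of 0.61 (SD, n = 5 each, exact p = 0.00794, adjusted p = 0.0333). Without the libraries labelled 1 and 2 the difference was 0.74 and no longer passed (exact p = 0.0357, adjusted p = 0.107). Ciita stood at -0.37, -0.53, 0.53, 0.30 and 0.31 log2 CPM, against 0.53 to 1.09 in PiZ, and did not pass either (-0.81 ± 0.35, adjusted p = 0.0994). With WT PBS 2 in the fit, which raises the spread that all groups share, only Cd74 was called lower, and 2.96% of all genes were. Leaving out PiZ 3, or the library labelled PiZ p50KO 1 or 2 alone, left 3 members called.

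Against WT PBS, the livers labelled PiZ p50KO had 5 members called higher, where 10.5% of all genes were called higher. These were H2-Eb1 (log2 fold change 4.45 ± 0.85, adjusted p = 0.00477 in limma), H2-DMb1 (2.03 ± 0.43, adjusted p = 0.00796), Ciita (1.45 ± 0.35, adjusted p = 0.0149), Cd74 (1.05 ± 0.22, adjusted p = 0.00664) and H2-Ab1 (0.92 ± 0.28, adjusted p = 0.035). H2-Aa (0.60 ± 0.22) and H2-DMa (0.70 ± 0.26) did not pass. H2-Eb1, H2-DMb1 and Ciita passed the filter here only with libraries of the other groups in the fit. With only the 2 groups compared, 4 members were tested, without those genes, and 1 was called higher. Without the libraries labelled 1 and 2 there were 6 called, where 15.5% of all genes were, and with WT PBS 2 kept there were 0, where 0.0817% of all genes were called higher.

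At 2 hours after TNFa in wild-type liver the coactivator Ciita was higher and no other member passed the test. Ciita, H2-Eb1 and H2-DMb1 passed the filter here only with libraries of the other groups in the fit. With only WT TNFa and WT PBS in the fit, 4 members were tested, without Ciita, and 0 were called. Ciita had its lowest value of -1.59, a median of -0.09 and its highest value of 0.72 log2 CPM over the 6 WT TNFa libraries, against -0.68, -1.34, -1.50, -1.46 and -2.01 in WT PBS. The lowest value was that of WT TNFa 4, which lay within the WT PBS range, while the other TNFa libraries lay above it. The log2 fold change was 1.21 ± 0.34 (adjusted p = 0.0209 in limma), or 1.49 ± 0.29 without WT TNFa 4 (adjusted p = 0.000685). Of all genes tested, 7.63% were called higher and 4.05% lower, or 7.42% and 6.18% with the libraries shifted to the same median. With WT PBS 2 in the fit the change of Ciita was 0.06 (adjusted p = 0.968) and 0 members were called, where 2.18% of all genes were called higher.

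The 6 other members had positive log2 fold changes after TNFa that did not pass. Cd74 ranged over 5.00 to 6.09 log2 CPM with a median of 5.32 in WT TNFa, against 4.45 to 5.35 in WT PBS (0.60 ± 0.21, adjusted p = 0.0641). H2-Ab1 ranged over 4.62 to 5.62 with a median of 5.02 in WT TNFa, against 4.27 to 4.75 in WT PBS (0.58 ± 0.27, adjusted p = 0.198). H2-Aa (0.48 ± 0.21), H2-DMb1 (0.57 ± 0.41) and H2-DMa (0.29 ± 0.25) overlapped too. H2-Eb1 ranged over -1.28 to 1.20 with a median of 0.47 in WT TNFa, against -2.14 to -0.41 in WT PBS (1.64 ± 0.82, adjusted p = 0.248). The SE of H2-Eb1 is shared with the spread among the libraries labelled PiZ p50KO. Without libraries 1 and 2 of that label it fell to 0.38, and Ciita (adjusted p = 0.0168), H2-Eb1 (adjusted p = 0.0065) and H2-Ab1 (adjusted p = 0.0489) were called, where 8.6% of all genes were called higher. Leaving out WT TNFa 1, WT TNFa 2 or WT PBS 6 left 0 members called, and leaving out WT TNFa 4, WT TNFa 5 or WT PBS 1 gave 2. Without WT TNFa 4 these were Ciita and Cd74 (0.65, adjusted p = 0.047), and 9.11% of all genes were called higher.

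Set directly against WT TNFa, PiZ livers had all 7 members called higher, where 47.7% of all genes were called higher and 8.11% lower. The log2 fold changes ran from 0.95 ± 0.21 for H2-Aa to 5.59 ± 0.82 for H2-Eb1, with Cd74 at 1.73 ± 0.21 and Ciita at 1.04 ± 0.34 (adjusted p = 0.0127 in limma). Nfkb1 went the other way, at 4.62 to 5.58 log2 CPM in PiZ, against 4.77 to 6.95 in WT TNFa (-1.26 ± 0.33, adjusted p = 0.00278). With the libraries shifted to the same median Ciita was no longer called (0.62, adjusted p = 0.148) and the other 6 were, while 20.7% of all genes were called higher and 22.8% lower. With quantile normalization Ciita (0.20, adjusted p = 0.637) and H2-DMa (0.43, adjusted p = 0.119) were not called, nor were they with WT PBS 2 in the fit (adjusted p = 0.417 for Ciita and 0.146 for H2-DMa).

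Tunicamycin was followed by lower class II levels. The 4 members that passed the filter, H2-Ab1, Cd74, H2-Aa and H2-DMa, were all called lower than in WT DMSO, where 13.5% of 13388 genes were called lower and 45.3% higher and the median log2 fold change of all genes was 0.38. H2-Ab1 ranged over 3.19 to 3.83 log2 CPM with a median of 3.49 in WT tunicamycin, against 3.75 to 7.08 with a median of 4.59 in WT DMSO (log2 fold change -1.42 ± 0.41, adjusted p = 0.00966 in limma). Cd74 ranged over 4.56 to 5.23 with a median of 4.77 in WT tunicamycin, against 5.03 to 8.02 with a median of 5.91 in WT DMSO (-1.23 ± 0.39, adjusted p = 0.016). The groups overlapped for each of the 4 genes, through WT DMSO 1, WT DMSO 2 or both. H2-Aa ranged over 3.58 to 4.20 with a median of 3.86 in WT tunicamycin, against 3.95 to 7.34 with a median of 4.90 in WT DMSO (-1.22 ± 0.45, adjusted p = 0.0316). H2-DMa ranged over 0.24 to 1.07 with a median of 0.68 in WT tunicamycin, against 0.65 to 3.16 with a median of 1.45 in WT DMSO (-0.93 ± 0.34, adjusted p = 0.0286).

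The highest value of each DMSO range belonged to WT DMSO 5. Without it the log2 fold changes were -0.99 for H2-Ab1, -0.84 for Cd74, -0.77 for H2-Aa and -0.62 for H2-DMa, and the 4 genes were still called, where 11.6% of all genes were called lower. Leaving out WT tunicamycin 1 or WT tunicamycin 6 left 2 of the 4 called. The libraries differed in scale, and with a shift to the same median the tunicamycin and DMSO groups no longer overlapped for these 4 genes, nor for 12.8% of all genes in this direction. With that shift 29.2% of all genes were called lower and 24.1% higher. H2-Eb1, H2-DMb1 and Ciita were above 1 CPM in only 4, 4 and 5 of 12 libraries and were tested alone. Their group means differed by -1.06, -0.98 and -1.14 log2 CPM (exact two-sided permutation test, unadjusted p = 0.039, 0.0281 and 0.0303). Without WT DMSO 5 the unadjusted exact p were 0.0779, 0.0563 and 0.0606. None of the 3 ratios to Cd74 tested here passed (smallest exact p = 0.0519), so a change of proportions was not detected.

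**Figure D4:**
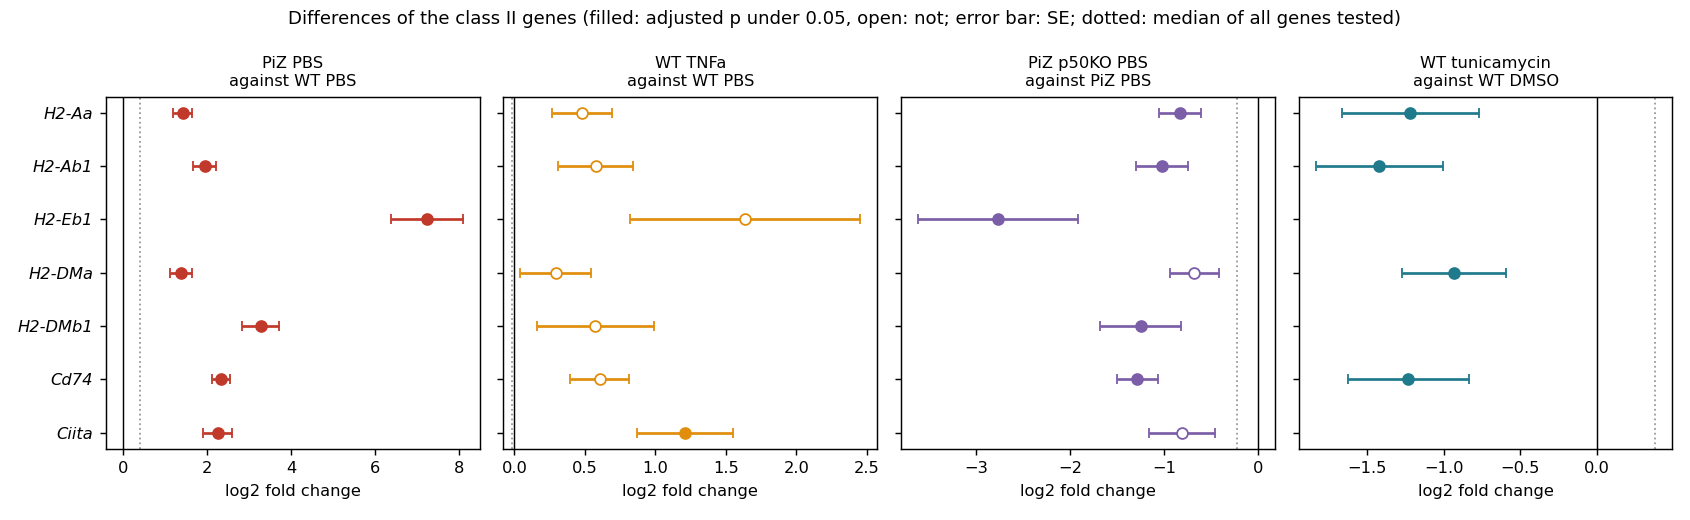
Log2 fold change (horizontal axes differ) with its SE for each member in 4 comparisons, filled where adjusted p is under 0.05, with the median of all genes dotted. All 7 members lie right of 0 in PiZ against WT PBS, Ciita alone is filled after TNFa, 5 are filled left of 0 for PiZ p50KO, and the 4 members tested after tunicamycin lie left of 0.

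Other genes of the pathway were described from lists. Of 10 antigen processing genes, 7 rose in PiZ and 0 fell, where 45.6% of all genes rose, led by cathepsin S (Ctss, 3.10 ± 0.24), which trims Cd74, and by the thiol reductase Ifi30 (1.29 ± 0.12) and legumain (Lgmn, 1.13 ± 0.14). After TNFa 0 of the 10 passed in either direction. In livers labelled PiZ p50KO 8 of the 10 were lower than in PiZ, where 21.6% of all genes were. Ctss was at -1.84 ± 0.24 and Ifi30 at -1.14 ± 0.12. Without the libraries labelled 1 and 2 there were 4, where 9.62% of all genes were lower. After tunicamycin Ctsl, a lysosomal protease, rose (2.35 ± 0.21), while Ifi30 (-0.90 ± 0.21), Ctsb (-0.76 ± 0.21) and Sppl2a (-0.47 ± 0.15), the protease that clears the Cd74 stub, fell. Of the other class II genes, only H2-DMb2 passed the filter. The H2-DO genes H2-Oa and H2-Ob, which hold H2-DM back, and H2-Eb2 were read at low levels, with H2-Ob at -0.73 to 0.47 log2 CPM in PiZ, against -3.65 to -1.86 in WT PBS.

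Of the 8 genes for factors that bind the class II promoter, 5 were higher in PiZ, where 45.6% of all genes were. Nfya (0.88 ± 0.16), a subunit of NF-Y, and Atf1 (0.54 ± 0.11) led in PiZ. Rfx5, the RFX subunit that contacts the X box, missed the threshold there (0.52 ± 0.29) and was higher after TNFa (1.18 ± 0.28, adjusted p = 0.0069 in limma), together with Nfya. Of all genes 7.63% were called higher after TNFa. In livers labelled PiZ p50KO, Nfya (-0.47 ± 0.16) and Nfyb (-0.36 ± 0.10) were lower and Rfxank (0.95 ± 0.26) was higher than in PiZ. Of all genes 21.6% were called lower and 3.36% higher there. Without the libraries labelled 1 and 2, 0 of the factors were called, where 9.62% of all genes were called lower. After tunicamycin 5 were higher, where 45.3% of all genes were, and Nfyb was lower (-1.08 ± 0.17), where 13.5% of all genes were. Median differences of the list were 0.42 in PiZ and 0.49 after tunicamycin, close to the 0.40 and 0.38 of all genes tested.

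Most genes of the interferon gamma axis rose in PiZ livers and after TNFa. The list held 10 measured genes, of which 9 passed the filter and were tested. Of these 9, 9 were higher in PiZ and 8 after TNFa, where 45.6% and 7.63% of all genes were called higher. Socs1, a brake on the receptor, was at 2.58 ± 0.68 in PiZ and 5.44 ± 0.65 after TNFa, and Irf1, a factor for Ciita transcription, at 1.34 ± 0.42 in PiZ and 3.65 ± 0.40 after TNFa. Ifngr1, a receptor chain, rose in both, by 1.83 ± 0.20 in PiZ and 1.16 ± 0.19 after TNFa, and in livers labelled PiZ p50KO it was lower than in PiZ (-1.26 ± 0.20). Of the same 9 genes 6 were lower in those livers than in PiZ, where 21.6% of all genes were. Without the libraries labelled 1 and 2 there were 2, where 9.62% of all genes were lower. Another list held 9 genes of costimulation and surface turnover, of which 7 were measured and 5 tested. Of these, Icosl (3.90 ± 0.58 in PiZ, 4.07 ± 0.55 after TNFa), Cd40 (3.40 ± 0.68 in PiZ, 5.05 ± 0.65 after TNFa) and Cd274 (2.46 ± 0.55 in PiZ, 3.29 ± 0.52 after TNFa) passed in both comparisons, as did the other 2 of the 5 tested. These 2 comparisons share the WT PBS libraries. With WT PBS 2 in the fit 0 of the 5 genes tested from that list were called in PiZ and 2 after TNFa. In that fit 15.1% of all genes were called higher in PiZ and 2.18% after TNFa.

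Markers of cells that carry class II moved with the members in PiZ. In PiZ against WT PBS 45.6% of all genes tested were called higher and 6.19% lower. Of 10 Kupffer cell markers 9 were higher in PiZ, with Cd68 (2.67 ± 0.24), Marco (2.31 ± 0.32) and Adgre1 (1.74 ± 0.19) leading, and their summed level was 465 to 761 CPM in PiZ, against 226 to 281 in WT PBS. All 10 markers of recruited macrophages and monocytes were higher, with Gpnmb (6.06 ± 0.86), Itgax (5.04 ± 0.53) and Trem2 (4.09 ± 0.57) leading, and summed to 525 to 662 CPM in PiZ, against 55.6 to 69.9 in WT PBS. The 10 B cell markers summed to 12.1 to 17.5 CPM in PiZ, against 2.29 to 7.56 in WT PBS, and both that were tested, Cd22 (2.54 ± 0.38) and Ighm (1.93 ± 0.31), were higher. Dendritic cell markers summed to 7.70 to 12.8 CPM in PiZ, against 2.55 to 5.67 in WT PBS, with 1 of 10 tested and called (Zbtb46). T cell markers summed to 4.49 to 6.12 CPM in PiZ, against 1.67 to 2.91 in WT PBS, with 1 of 10 tested and 0 called. The 5 leukocyte genes all rose, with Ptprc at 2.50 ± 0.25. Hepatocyte markers, by contrast, had 0 higher and 3 lower of 5, and sinusoidal endothelial markers 5 higher of 6, with a median of 0.62. The part of these cells in the class II levels was not tested.

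In livers labelled PiZ p50KO all 10 Kupffer cell markers and 9 of 10 recruited macrophage markers were lower than in PiZ, and 8 and 4 without the libraries labelled 1 and 2. Of all genes 21.6% were called lower, and 9.62% without those libraries. The recruited macrophage markers summed to 76.5 and 81.7 CPM in the libraries labelled 1 and 2 and to 222, 387 and 349 CPM in the other 3, against 525 to 662 in PiZ. Kupffer cell markers did not split in this way, at 356 and 339 CPM in the libraries labelled 1 and 2 and 252, 370 and 463 CPM in the other 3. After TNFa 1 of 10 Kupffer cell and 3 of 10 recruited macrophage markers were higher, where 7.63% of all genes were. Neutrophil markers summed to a median of 69.2 CPM in WT TNFa, against 2.27 to 21.1 in WT PBS. WT TNFa 4 had the lowest neutrophil sum of its group, 7.86 CPM. After tunicamycin 5 Kupffer cell markers were lower, among them Timd4 (-0.88 ± 0.28), Csf1r (-0.86 ± 0.27) and Adgre1 (-0.76 ± 0.28), and 4 without WT DMSO 5. Of all genes 13.5% were called lower after tunicamycin, and 11.6% without WT DMSO 5. In that library Kupffer cell markers summed to 854 CPM and B cell markers to 32.9 CPM, the highest of the second table, as were its class II values. The 4 hepatocyte markers called after tunicamycin were all lower, with Apoa1 at -2.47 ± 0.36.

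**Figure D5:**
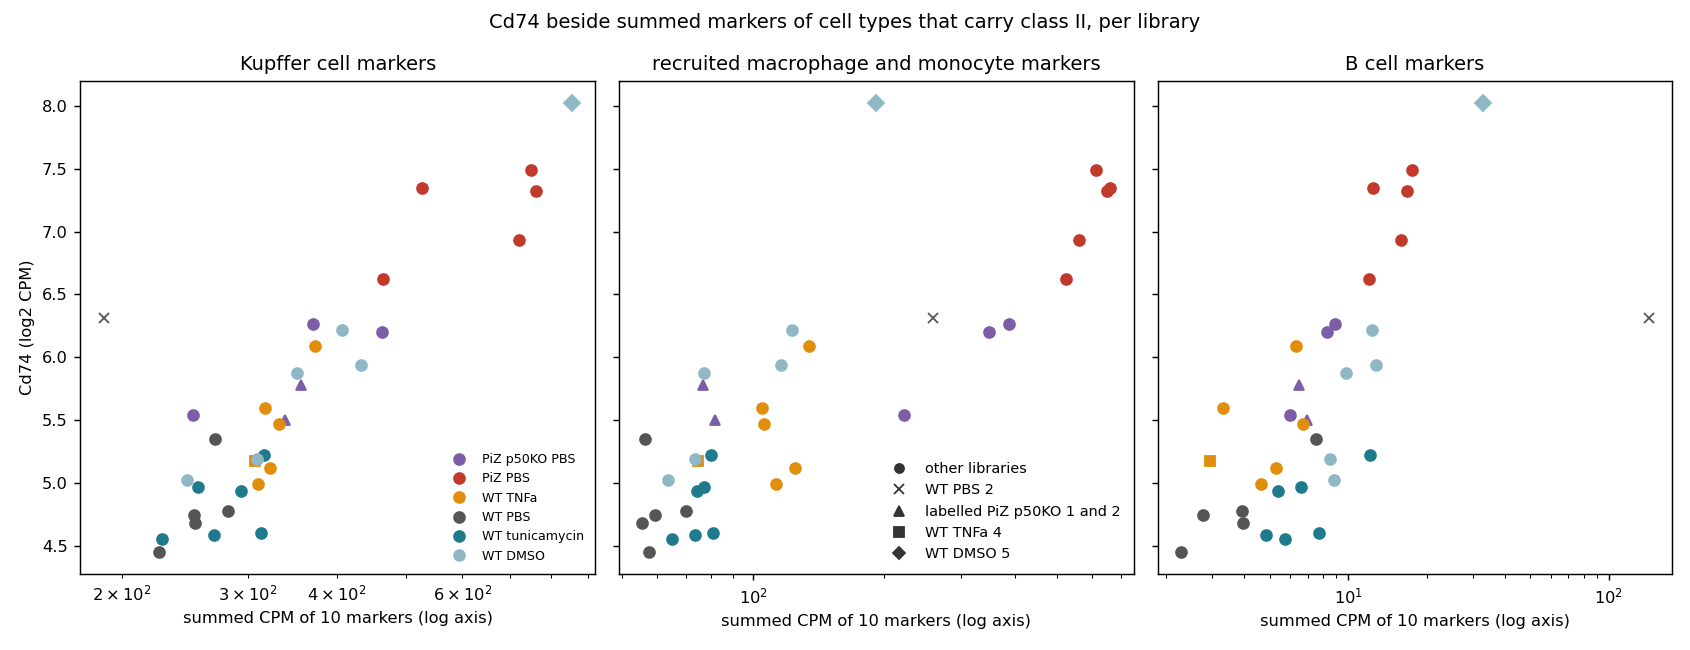
Cd74 in log2 CPM against the summed CPM of 10 markers per cell type (log axis), with 1 point per library. PiZ and WT DMSO 5 lie at the top of Cd74, WT DMSO 5 has the most Kupffer cell marker RNA and the PiZ libraries the most recruited macrophage marker RNA, and WT PBS 2 (cross) lies off the others for B cell and Kupffer cell markers.

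Across the 21 libraries of the first table Pearson's r between pairs of members had a median of 0.87 over 21 pairs, from 0.68 to 0.95. With group means removed the median was 0.61, from 0.19 for H2-DMa with Ciita to 0.88, and over the 12 libraries of the second table it was 0.92. These are descriptions over libraries that share groups, depth and cell makeup. Genes outside the family were ranked by likeness to the mean of the members over the 21 libraries. Those averaging under 2 log2 CPM were left out of this ranking. Among the genes ranked, the 8 most alike were led by Lyz2 (r = 0.97), Pkm (0.97) and Nckap1l (0.97). The rest of the 8 were Plac8 (0.96), Lgals3bp (0.96), Igtp (0.96), Arhgef2 (0.96) and Ccl6 (0.96). Lyz2 encodes the lysozyme of macrophages and granulocytes, and Nckap1l a blood cell actin regulator. In the second table Nckap1l (r = 0.97), Pkm (0.89) and Lyz2 (0.86) were still close to the family, while Lgals3bp (0.02), Ccl6 (-0.05) and Arhgef2 (-0.50) were not.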

How the data were processed

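Polyadenylated RNA of mouse liver was sequenced, and the authors deposited 2 tables of log2 CPM, of 22 and 12 libraries. Per the submitters' processing notes the tools were bcl2fastq, DRAGEN, STAR, Subread featureCounts and edgeR with build GRCm38, and their settings and strand handling are not given in the sources used here. The log2 values deposited by the authors are moderated, with an offset of 0.0109 and 0.0118 CPM at the mean library, so folds of genes near 0 reads depend on it. Each table has 55487 gene IDs, after 287 repeated rows were dropped. Whole reads could be recovered from the low values checked (within 0.1 read) in 100% of cases in every library, which gave the depths. H2-Eb1, H2-DMb1 and Ciita had at most 40 reads in each WT PBS library used, so counting error bears on their low values. Positions come from GENCODE M21 (GRCm38) and promoters from RefSeq (GRCm38.p6).

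Groups came from the titles. The labels tie 3 tunicamycin columns to more than 1 library, and these columns carry their group but no number. Libraries were taken as separate mice, which the labels do not state, so p-values measure the spread between these libraries. Same-numbered libraries did not deviate together throughout any comparison (the correlation was over 0.1 in every pair in no comparison), so the numbers were not used as pairs. Some pairs did, with a correlation of 0.56 for number 4 in PiZ against WT PBS. In PiZ against WT TNFa 3 of 5 pairs were over 0.1.

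limma 3.58.1 in R 4.3.3 (lmFit, eBayes with trend, two-sided) was run on the log2 CPM of genes over 0 log2 CPM (1 CPM) in 5 or more libraries (first table) or 6 or more (second table). Each table was fitted whole, WT PBS 2 left out, and Benjamini-Hochberg adjustment over all genes tested. Ratios and members under the filter had exact permutation tests (scipy 1.17.1). The fit was checked on simulated data. Levels per kb use the longest protein-coding transcript. Alternatives were WT PBS 2 kept, log2(CPM + 1), no filter, a filter at 4 CPM, a median shift, quantile normalization, only the 2 groups compared, limma voom on recovered reads, a replicate block and libraries left out. The members, lists and tests were chosen with earlier results of these data known. All 7 members are named in each comparison. From each list up to 3 genes past the threshold with the greatest rise and 3 with the greatest fall may be named, and any gene of the pathway lists. Counts of the lists without doubted libraries were added after seeing the data.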

Additional observations from a re-analysis of the deposited data

Results flagged for a closer look

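WT PBS 2 was left out of the comparisons except where it is named, and its class II values other than H2-Aa stood apart from the rest of WT PBS. Ciita was at 5.48, Cd74 at 6.31, H2-Ab1 at 5.47, H2-DMa at 5.21, H2-Eb1 at 5.08 and H2-DMb1 at 2.95 log2 CPM there. H2-Aa, at 5.04, lay just above the 5.00 of WT PBS 1. H2-Ea, which had no reads in any other library, was at 2.60. The same library had dendritic cell markers summing to 183 CPM and T cell markers to 132 CPM, against at most 17.4 and 8.36 in every other library of both tables, and hepatocyte markers to 7588 CPM, against at least 23940. The part of its depth and composition in these values was not tested.

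Within groups, PiZ 4 lay far below the other PiZ libraries for H2-Aa (5.47 log2 CPM) and H2-Eb1 (5.18), and WT DMSO 5 lay far above the other DMSO libraries for H2-Ab1 (7.08) and H2-DMa (3.16). A library was singled out where its gap to the nearest other, divided by the range of the group, passed the 95% critical value of Dixon's test. That level singles out about 1 in 20 groups by chance, and 4 of 42 groups were singled out here, with members that share libraries.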

How the results depend on the processing

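In PiZ against WT PBS, 7 members were called leaving out any PiZ or WT PBS library. Of the alternatives run only WT PBS 2 kept ended the call of a member that was tested. With a filter at 4 CPM 6 members were tested, without Ciita, and 6 were called. After TNFa the count of 1 (Ciita) became 0 with WT PBS 2 kept or the replicate block (adjusted p = 0.0533), and was 0 with a filter at 4 CPM or only the 2 groups compared, where Ciita fell under the filter and was not tested. It became 3 without the libraries labelled PiZ p50KO 1 and 2, and 0 to 2 leaving out 1 library. H2-DMa and H2-DMb1 turned to -0.35 and -0.0563 after TNFa with WT PBS 2 kept (adjusted p = 0.683 and 0.96). In PiZ p50KO against PiZ the count of 5 became 1 with WT PBS 2 kept, 3 with only the 2 groups compared, 1 without the libraries labelled 1 and 2, and 3 to 6 leaving out 1 library, while voom called 7. In PiZ p50KO against WT PBS the count of 5 became 0 with WT PBS 2 kept, 3 with quantile normalization, 1 with only the 2 groups compared, where 4 members were tested, 3 with the replicate block, and 4 to 6 leaving out 1 library. After tunicamycin the count of 4 became 3 with a filter at 4 CPM, where 3 members were tested, and 2 to 4 leaving out 1 library. The count of 5 ratios to Cd74 became 0 with WT PBS 2 kept, 8 with log2(CPM + 1), and 0 to 8 leaving out 1 library, where smaller groups raise the smallest p that an exact test can give. Elsewhere the cause was not tested. In PiZ against WT TNFa the count of 7 became 5 with WT PBS 2 kept or quantile normalization, and 6 with a filter at 4 CPM, where Ciita was not tested, or a median shift. The replicate block left 7 members called in PiZ against WT PBS, 4 in PiZ p50KO against PiZ and 4 after tunicamycin.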
